A study of Mus musculus with 20 samples.

Results

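Open chromatin was compared between mTOR-null and wild-type hematopoietic stem cells (HSC) in 4 ATAC-seq libraries, 2 per genotype, out of 20 samples in the series. ATAC-seq marks accessible DNA by the insertion of sequencing adapters by a transposase. The cells were sorted from adult mice. Every mouse, controls included, was homozygous for a floxed mTOR allele and received poly(I:C), which induces Cre from the interferon-responsive Mx1 promoter. WT mice had no Cre (Mx1-Cre-/-;mTORflox/flox) and KO mice carried it (Mx1-Cre+/-;mTORflox/flox). A further 2 ATAC-seq libraries, KO MycHet, came from Mx1-Cre+/-;mTORflox/flox;c-Myc+/flox mice and are given for reference only. Each library was made from 50000 sorted cells. Mx1-Cre acts in many cell types besides HSC. The labels do not say whether cells of several mice were pooled or which libraries were made together. The libraries were compared within 2 pairs taken from their titles: the unnumbered WT and KO libraries (WT 1 and KO 1, pair 1) and those numbered 2 (WT 2 and KO 2, pair 2).

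mTOR is the kinase at the core of 2 protein complexes that couple nutrient and growth factor signals to protein synthesis, ribosome production, mitochondrial activity and autophagy. In HSC the pathway is known for its part in the balance between quiescence and growth. Open chromatin lies mostly at transcription starts, which stay accessible in many cell types, and at distal elements, which are more specific to a cell type and carry the sites of lineage factors.

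The authors deposited 1 list of peaks per library, each with a score from the peak caller. On chromosomes 1 to 19 and X, WT 1 held 17303 peaks, KO 1 19174, WT 2 66531 and KO 2 72149. The lists of pair 2 were thus several times longer than those of pair 1 in both genotypes. Read counts are not given, so depth is unknown, and a score can be read only within its own list. Each list was therefore cut to its 17303 highest-scoring peaks, and each peak was given a percentile, from 100 for the highest score down to just over 0, with 0 for a region that had no peak in the cut list. A percentile of 0 in pair 2 can still be a peak further down the full list. Merging all peaks that shared at least 1 bp gave 25632 regions with a peak in any cut list, of which 10536 had one in all 4. A region was called when its percentile differed by at least 25 points between KO and WT of a pair. No test across regions is possible without counts, and 2 libraries against 2 cannot reach an exact two-sided permutation p below 0.33. Such a p measures only the spread between these libraries, which may be technical, and takes no account of the pairs.

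The label of the cells was checked at the starts of marker genes. Of 36 HSC transcription factor genes, WT 1, KO 1, WT 2 and KO 2 had a peak within 1 kb of a start at 23, 22, 33 and 35. For 21 HSC surface marker genes these counts were 7, 5, 19 and 17. For markers of other cells the counts were 2, 1, 9 and 9 of 23 B cell genes, 3, 6, 18 and 15 of 32 T and NK cell genes, 5, 3, 24 and 26 of 34 myeloid genes, 7, 12, 22 and 18 of 27 erythroid genes, 6, 7, 19 and 17 of 23 megakaryocyte genes, 6, 5, 15 and 15 of 20 dendritic cell genes, 1, 1, 10 and 11 of 20 mast cell, basophil and eosinophil genes and 1, 2, 16 and 14 of 25 stromal and endothelial genes. All 21631 protein-coding genes gave 9950, 9919, 14325 and 14289. Among defining markers, chosen after the lists were seen, Cd79a, Pax5, Cd3e, Cd3g, Ly6g and Cdh5 had no start peak in any of the 4 lists, while the erythroid factor gene Klf1 had one in both libraries of pair 2. The HSC gene Mecom had a start peak in all 4. An open start does not show that a gene is expressed, and the part of other cells in the results was not tested.

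The promoters below belong to the target gene and to genes whose start region ranked higher in one genotype in both pairs, and are shown to give the sequence that lies in those regions. Each run is the 250 bases before an annotated start, 5′ to 3′ on the gene's strand, from RefSeq on GRCm38.p6 (mm10), with capitals marking every match to one of 16 short motifs on either strand. Mtor lies on the plus strand at chr4:148448332-148448581, Hexim1 on the plus strand at chr11:103116075-103116324, Nfkbia on the minus strand at chr12:55492648-55492897, Galt on the plus strand at chr4:41755267-41755516 and Kdm1a on the minus strand at chr4:136602724-136602973.
Mtor: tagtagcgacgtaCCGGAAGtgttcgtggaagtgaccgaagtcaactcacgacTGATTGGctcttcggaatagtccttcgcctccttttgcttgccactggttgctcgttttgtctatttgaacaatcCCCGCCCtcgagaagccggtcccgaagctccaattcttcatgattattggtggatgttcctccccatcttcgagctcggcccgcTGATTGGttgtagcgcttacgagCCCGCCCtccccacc
Hexim1: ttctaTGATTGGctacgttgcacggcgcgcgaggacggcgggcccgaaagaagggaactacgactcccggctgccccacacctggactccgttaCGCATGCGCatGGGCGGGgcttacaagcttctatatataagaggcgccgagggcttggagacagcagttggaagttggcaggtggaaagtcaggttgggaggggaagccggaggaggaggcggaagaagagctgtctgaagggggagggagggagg
Nfkbia: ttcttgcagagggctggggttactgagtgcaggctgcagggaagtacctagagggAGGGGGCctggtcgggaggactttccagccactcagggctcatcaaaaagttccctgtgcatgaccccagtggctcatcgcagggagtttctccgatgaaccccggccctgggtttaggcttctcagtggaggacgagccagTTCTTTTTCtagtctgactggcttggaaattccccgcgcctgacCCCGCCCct
Galt: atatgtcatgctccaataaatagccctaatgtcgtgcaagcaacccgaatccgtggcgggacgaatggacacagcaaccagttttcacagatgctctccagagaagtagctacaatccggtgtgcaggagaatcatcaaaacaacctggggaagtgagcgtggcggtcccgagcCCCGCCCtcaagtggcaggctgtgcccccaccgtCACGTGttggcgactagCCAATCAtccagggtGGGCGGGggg
Kdm1a: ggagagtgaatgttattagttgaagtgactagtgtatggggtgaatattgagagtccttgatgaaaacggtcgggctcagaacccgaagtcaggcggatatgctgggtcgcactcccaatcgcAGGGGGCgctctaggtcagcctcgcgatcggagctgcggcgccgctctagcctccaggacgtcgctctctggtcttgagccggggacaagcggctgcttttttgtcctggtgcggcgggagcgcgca
In the Mtor promoter the capitals are CCGGAAG of ETS factors, CCAATCA of NF-Y on the reverse strand and GGGCGGG of SP and KLF factors on the reverse strand. The first of 2 annotated Galt promoters in its region, the one shown, holds CACGTG, the E-box of MYC, as well as NF-Y and SP/KLF matches, and the other (chr4:41756012-41756261) holds none of the 16 motifs. That of Hexim1 holds NF-Y, SP/KLF and the NRF1 motif GCGCANGCG. Nfkbia has an SP/KLF match, the interferon-response core GAAANNGAA and AGGGGGC of the CTCF core, and Kdm1a has the last of these alone. A match is a description of the letters and not a site.

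Mtor (ID 56717, chromosome 4, 148448582 to 148557685) had the largest difference of any region called in both pairs. Its start region (148448009 to 148449573) stood at percentile 96.7 in WT 1 and 95.6 in WT 2, and had no peak in KO 1, KO 2 or either KO MycHet library, in the full lists as in the cut ones. Both WT libraries were thus far above both KO libraries. The other regions of the gene did not follow the genotype. An internal region (148509191 to 148510212) stood at 41.4 in WT 1, 47.3 in KO 1, 28.9 in WT 2 and 0 in KO 2. In the full lists it stood at 41.4, 52.5, 81.5 and 74.7 in the same order. By either measure KO ranked it higher in pair 1 and lower in pair 2, where the cut lists gave a WT call. The region past the far end (148557967 to 148559125) was absent from both full lists of pair 1 and present in both of pair 2, at full-list percentiles of 75.1 in WT 2 and 60.4 in KO 2. The labels do not state which part of Mtor the floxed alleles remove, so a missing peak at the start cannot be told apart from missing DNA.

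Myc, whose protein drives ribosome production and growth genes, had an open start in all 4 libraries. Its start region (chromosome 15, 61983972 to 61988450) stood at 71.0 in WT 1 and 56.6 in KO 1, and at 27.4 in WT 2 and 34.1 in KO 2. The shift was -14.34 points in pair 1 and 6.68 in pair 2, so the pairs differed in direction and neither was called.

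Outside Mtor, the pairs shared few differences. In pair 1, 3409 regions ranked higher in KO (13.3% of 25632) and 3399 in WT (13.3%). In pair 2, 1917 ranked higher in KO (7.48%) and 1622 in WT (6.33%). Of the 6808 regions called in pair 1, 15.03% were called in pair 2 at all. These 1023 regions went the same way in 614 cases, 305 higher in KO in both pairs (1.19% of all regions) and 309 higher in WT in both pairs (1.21%). They went opposite ways in 409 (1.6%), 221 with KO higher in pair 1 and WT in pair 2 (0.862%) and 188 the reverse (0.733%). The shifts of the pairs were nearly unrelated across the 25632 regions (Spearman 0.06, Pearson 0.07, a description over regions that share libraries). At 50 points, 15 regions remained higher in KO, 2 in WT and 8 in opposite directions. With the full lists in place of equal lengths, 171 were higher in KO, 88 in WT and 231 opposite, and the share of KO among the calls went from 50.1% to 60.6% in pair 1 and from 54.2% to 60.8% in pair 2. In pair 2 it was 81.3% at 50 points, but 48.5% at 15 points and 48.0% with regions merged by 50% overlap.

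**Figure D1:**
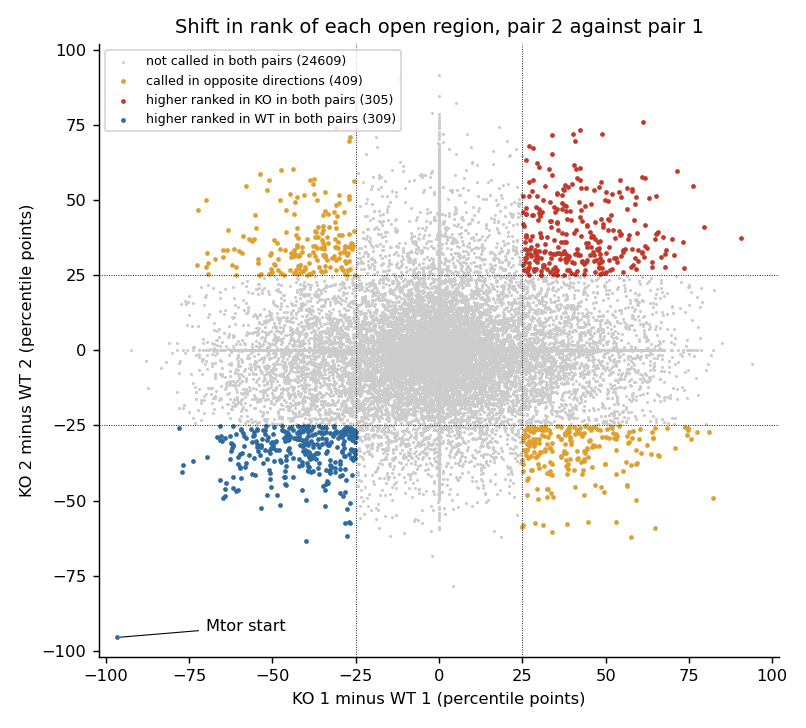
Each point is 1 of 25632 open regions, with its KO minus WT difference in percentile points in pair 1 (x axis) and pair 2 (y axis); dotted lines mark 25 points. The cloud shows little slant, 614 regions lie in the corners where both pairs go the same way and 409 in the others, and the Mtor start lies alone near -96.7 and -95.6.

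How alike the library rank orders were did not follow the genotype. Over the 10536 regions in all 4 cut lists, the Spearman correlation was 0.75 between WT 1 and KO 1 and 0.86 between WT 2 and KO 2. It was 0.70 between the WT libraries and 0.70 between the KO libraries, 0.71 between WT 1 and KO 2, and 0.68 between KO 1 and WT 2. Over all 25632 regions, with absent regions at 0, the order of these values changed for pair 1: it was 0.66 between WT 1 and KO 1, 0.83 between WT 2 and KO 2, 0.71 between the WT libraries, 0.64 between the KO libraries, 0.66 between WT 1 and KO 2 and 0.66 between KO 1 and WT 2. Pair 2 was thus the closest by either measure, and pair 1 only over shared regions was closer than either genotype. These values describe regions that share libraries and carry no p. Peak widths also differed: the median peak was 590 bp wide in WT 1, 514 in KO 1, 697 in WT 2 and 549 in KO 2. KO was narrower in both pairs, by 112 bp on average (KO 531.5 ± 24.8, WT 643.5 ± 75.7, SD, n = 2 each; exact two-sided permutation p = 0.33).

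Regions ranked higher in KO in both pairs lay mostly away from gene starts, and those ranked higher in WT lay mostly at them. Of the 305 higher in KO, 12.5% were within 1 kb of a start (exact Clopper-Pearson 95% interval 8.97 to 16.7, counting error only), against 54.4% (48.6 to 60.0) of the 309 higher in WT and 42.7% of all 25632 regions. Of the 12051 regions with a percentile of at least 25 in some library of each pair, which alone could be called in both, 66.9% (66.0 to 67.7) were at starts, so both called classes lay below that share. The median distance to a start was 25600 bp for the KO-called regions and 0 bp for the WT-called ones. The size of this gap depended on the pair. In pair 1 alone, 31.4% of the KO-called and 41.6% of the WT-called regions were at starts, and in pair 2 alone 15.2% and 51.7%. Among regions called in opposite directions the shares followed pair 2: 49.8% were at starts where WT ranked higher in pair 2, and 19.1% where KO did. With pair 2 at its own length of 66531 peaks, 90 regions were KO-called and 128 WT-called, and the shares at starts were 8.89% and 14.8%. With full lists they were 7.60% and 17.0%. Among the 17303 strongest peaks, 54.1% were at starts in WT 1, 51.4% in KO 1, 57.1% in WT 2 and 53.2% in KO 2, lower in KO in both pairs (KO 52.3% ± 1.28, WT 55.6% ± 2.13, SD, n = 2 each; exact two-sided permutation p = 0.33).

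The 12 KO-called regions with the largest differences were all away from starts. Near Trim66 a region inside the gene (chromosome 7, 109456470 to 109457213) stood at 0 in WT 1, 61.2 in KO 1, 0 in WT 2 and 76.1 in KO 2. A region 294682 bp from Mettl15, a mitochondrial ribosomal RNA methyltransferase (chromosome 2, 108796685 to 108797615), stood at 0, 71.5, 0 and 59.9 in the same order. A region 60902 bp from Rgs13, a regulator of G protein signalling (chromosome 1, 144075794 to 144076484), stood at 0, 60.9, 0 and 57.8. In each case both KO libraries ranked it in the upper part of the list and neither WT library had it in the cut list. All 12 had a peak in the full WT 2 list, and only 1 of 12 had any peak in WT 1.

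Among the others of these 12 were regions inside or nearest to genes with known parts in blood cells. Whether these regions act on those genes was not tested. A region 66558 bp from Zfp36l2, which encodes an RNA-binding protein that destabilizes messenger RNAs (chromosome 17, 84115762 to 84117366), stood at 35.1 in WT 1, 89.6 in KO 1, 23.4 in WT 2 and 80.0 in KO 2. Inside Dpp4, whose peptidase cleaves the HSC chemokine CXCL12, the region on chromosome 2 (62390619 to 62391748) stood at 0, 65.1, 31.9 and 83.3. The KO libraries were above the WT libraries at both, which the call requires within each pair. A further 6, near Stap1, Slc17a6, Dppa3, Cadm1, Mcu and Map3k7cl, had shifts of at least 51.95 points in both pairs. In the KO MycHet libraries the 12 regions stood at a median of 59.4 (25.3 to 84.6) and 65.7 (39.3 to 89.1), above WT 1 and WT 2 for all of the examples given here.

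Of the 12 WT-called regions with the largest differences, Mtor among them, most lay at gene starts. The start of Galt, which encodes galactose-1-phosphate uridylyltransferase (chromosome 4, 41754825 to 41757008), stood at 55.9 in WT 1, 2.38 in KO 1, 52.4 in WT 2 and 0 in KO 2. Acot11, an acyl-CoA thioesterase (chromosome 4, 106803641 to 106805514), stood at 48.7, 0, 51.0 and 2.87. The WT libraries ranked both near the middle of the list and the KO libraries at its end or below it. The start of the splicing regulator Sfswap (chromosome 5, 129500528 to 129502499) stood at 47.9, 0, 51.5 and 0. The shared start of Coq4, needed for coenzyme Q, and Trub2 (chromosome 2, 29787372 to 29788732) stood at 61.9, 0, 46.0 and 0. Usp24, Arhgef18 and regions near Elovl7, Slc22a29 and Dynlt1b were also among the 12. All but Mtor had a peak in the full KO 2 list. The KO MycHet libraries did not rank these regions alike: Galt stood at 43.5 and 61.2 there, close to WT, while Acot11 stood at 0 in both, as in KO 1.

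**Figure D2:**
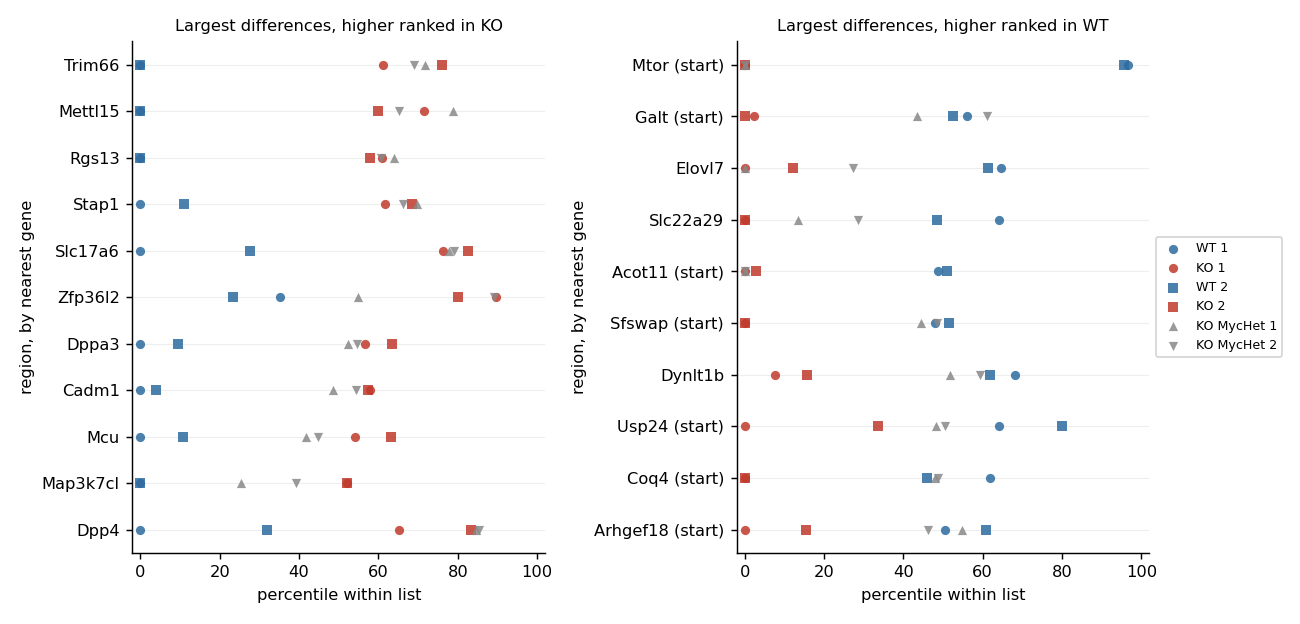
Percentile in each ATAC-seq library of 11 of the 12 regions with the largest differences called for KO (left) and 10 of the 12 called for WT (right), named by the gene at the start or nearest to the region. In the left panel both KO libraries lie to the right of both WT libraries for every region shown, and in the right panel to the left, with Mtor the only one above 95 in WT and at 0 in the other 4.

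The KO-called regions at starts with the largest differences included those of C1s2, Kdm6b, Crisp1, Arhgef1, Lmna, Tle6 and Lilrb4a. Kdm6b, an eraser of the repressive mark H3K27me3 (chromosome 11, 69416912 to 69420905), stood at 0.90 in WT 1, 51.5 in KO 1, 30.5 in WT 2 and 80.4 in KO 2. A start of Lmna, the lamin A/C gene (chromosome 3, 88500967 to 88504058), stood at 0, 40.4, 0 and 61.8. The KO libraries were higher than the WT libraries within the pairs, which the call requires, and also across them at both. In KO MycHet the 8 regions stood at medians of 24.8 and 28.5, with Kdm6b at 64.5 and 70.1 and Crisp1 at 8.96 and 5.57.

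Taking for each gene its strongest start region, 35 of 11804 genes ranked higher in KO in both pairs (0.297%) and 169 in WT (1.43%). Within pair 1 the counts were 1104 (9.35%) and 1465 (12.4%), and within pair 2 they were 294 (2.49%) and 893 (7.57%). The median shift over all these genes was 0.00 points in pair 1 and -2.01 in pair 2. In 27 lists of pathway and marker genes, few members were called alike in both pairs, and no list had more than 2 in one direction.

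Among signalling and transcription genes, those higher in KO were Hexim1, Nfkbia, Kdm6b and Irf4. Hexim1, which holds the elongation kinase P-TEFb inactive (chromosome 11, 103115120 to 103118046), stood at 31.9 in WT 1, 85.1 in KO 1, 50.6 in WT 2 and 81.2 in KO 2. It was the only one of 34 P-TEFb and elongation genes called in both pairs. Its peak was 546 bp wide in WT 1, 648 in KO 1, 2927 in WT 2 and 966 in KO 2. In KO MycHet it was 3027 and 938 bp wide, and the part of width in the call was not tested. Nfkbia, the NF-kB inhibitor (chromosome 12, 55490202 to 55493355), stood at 33.5, 80.0, 49.2 and 80.9, the only one of 24 NF-kB and inflammation genes. Irf4, a transcription factor of lymphoid and dendritic cells from the dendritic cell list (chromosome 13, 30748329 to 30750031), stood at 6.99, 80.5, 0 and 27.4. At Hexim1 and Nfkbia the KO libraries stood between 80.0 and 85.1 and the WT libraries between 31.9 and 50.6. Both genes were picked by their calls in both pairs, which largely sets this gap. The KO MycHet values were 61.9 and 79.1 for Hexim1 and 89.6 and 86.8 for Nfkbia, but 2.39 and 0 for Irf4. A second start of Mxi1, an antagonist of MYC (chromosome 19, 53309781 to 53314988), stood at 4.74, 72.6, 1.85 and 33.9; it is not that gene's strongest start region.

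Listed genes higher in WT in both pairs were Mtor, Rps6ka1, Tgfbr2, Parp9, Ndufa9, Ndufs4, Hdac5, Kdm1a and Cd24a. Ndufs4 and Ndufa9 encode subunits of respiratory complex I. Ndufs4 (chromosome 13, 114387045 to 114388540) stood at 51.6 in WT 1, 0 in KO 1, 53.4 in WT 2 and 17.3 in KO 2. Ndufa9 (chromosome 6, 126848387 to 126849596) stood at 52.7, 0, 42.8 and 16.5. They were the only 2 of 59 oxidative phosphorylation genes called alike; the list had 6 genes higher in KO and 5 in WT in pair 1, and 0 and 5 in pair 2. Kdm1a, a demethylase of H3K4 (chromosome 4, 136601899 to 136603113), stood at 45.8, 0, 54.6 and 18.1, and the deacetylase gene Hdac5 (chromosome 11, 102229072 to 102230806) at 59.4, 29.6, 51.3 and 24.1. Tgfbr2, the type II receptor of TGF-beta, which keeps HSC quiescent (chromosome 9, 116174205 to 116176301), stood at 36.8, 7.54, 68.3 and 26.8. In the KO MycHet libraries Tgfbr2 stood at 66.7 and 65.5 and Kdm1a at 45.5 and 48.1, close to or above WT 1, while Ndufa9 stood at 16.7 and 19.02, near KO 2, and Ndufs4 at 29.7 and 39.7, between KO and WT. Rps6ka1, which encodes the kinase RSK1 downstream of ERK (chromosome 4, 133887205 to 133888650), stood at 27.6, 2.42, 56.3 and 23.0.

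**Figure D3:**
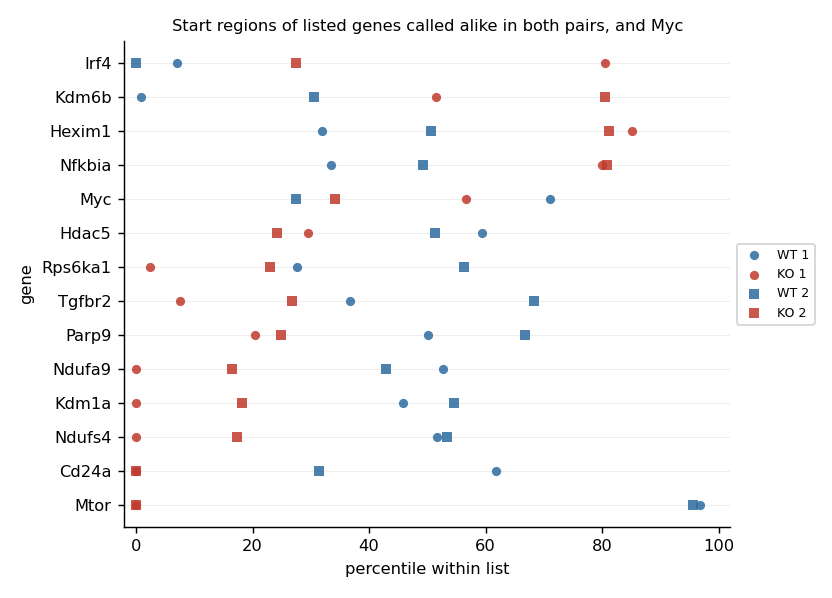
Percentile of the strongest start region of each listed gene that was called alike in both pairs, and of Myc, in the 4 libraries (circles pair 1, squares pair 2; blue WT, red KO). For Irf4, Kdm6b, Hexim1 and Nfkbia the red mark lies to the right of the blue mark of the same pair, for Myc the order differs between the pairs, and for the genes below Myc red lies to the left.

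The pathway lists are given beside all 11804 genes, of which 9.35% ranked higher in KO and 12.4% in WT in pair 1, and 2.49% and 7.57% in pair 2, with medians of 0.00 and -2.01. Of 42 mTOR pathway genes, 1 ranked higher in KO and 5 in WT in pair 1 and 1 and 6 in pair 2, and Mtor alone was called alike in both; the median shifts were -1.64 and -4.10 points. Ribosomal protein and ribosome biogenesis genes, a main output of mTOR and MYC, had 5 KO and 11 WT calls in pair 1 and 1 and 4 in pair 2 among 66 genes, with medians of -2.19 and -2.84 and none alike. Interferon response genes, relevant since all mice received poly(I:C), had 2 and 4 calls in pair 1 and 0 and 5 in pair 2 among 33, with medians of -1.69 and -7.80, and Parp9 alone was alike. Cell cycle genes had medians of -3.52 and -0.09, and autophagy and lysosome genes -0.08 and -5.30. The 40 cytokine receptor and JAK-STAT genes had 10 KO and 4 WT calls in pair 1, among the former Epor, Csf2rb, Cxcr4 and Socs3, and 2 and 3 in pair 2, with medians of -1.87 and 0.00.

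Immediate early and AP-1 genes, which are switched on within minutes by growth factors or stress, gave KO calls in pair 2 only; whether the pairs differ was not tested. Of 32 with a start region, 8 ranked higher in KO in pair 2 (Atf3, Dusp6, Egr1, Fos, Jun, Jund, Nr4a1 and Zfp36) and 1 in WT, against 0 and 1 in pair 1. Over all genes the KO calls were 2.49% in pair 2 and 9.35% in pair 1, and the WT calls 7.57% and 12.4%. Egr1 stood at 85.4 in WT 1, 73.4 in KO 1, 0 in WT 2 and 90.2 in KO 2. Jund stood at 69.7, 87.7, 0 and 74.4, and Fos at 56.4, 19.2, 0 and 34.7, with the pairs in opposite directions. One library, WT 2, had no peak at these 3 starts. Full lists showed the same: 23 regions had a peak in WT 1, KO 1 and KO 2 and none in WT 2, and 8 of these were at starts, including Jun, Jund, Egr1, Fos and Fosb, while none of the 13 missing from KO 2 alone was at a start. These genes were chosen after their values were seen. The KO MycHet libraries were themselves divided at Egr1, with no peak in the first and a full-list percentile of 93.9 in the second.

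WT 2 peaks were wider than KO 2 peaks at starts in general, with medians of 1632 and 1251 bp over all start regions. Of the 8 immediate early starts called for KO in pair 2, Jun, Jund, Egr1 and Fos had no WT 2 peak and so no width there. The Atf3 peak was 4785 bp wide in WT 2 and 2175 in KO 2, the Dusp6 peak 5785 and 3475 bp, the Nr4a1 peak 2270 and 1232 bp and the Zfp36 peak 3727 and 3266 bp. In the WT 2 list the 181 peaks wider than 4 kb had a median full-list percentile of 82.9, against 90.8 for the 3405 peaks of 2 to 3 kb, so the widest peaks did not score highest. KO 2 held 26 peaks wider than 4 kb. The part of peak width in the pair 2 differences was not tested.

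HSC transcription factor genes likewise gave calls that did not repeat. In pair 2, Tal1, a master regulator of blood stem cells, stood at 0 in WT 2 and 68.9 in KO 2, but at 56.6 in WT 1 and 56.4 in KO 1. The full WT 2 list still held a Tal1 peak, 3518 bp wide against 1767 bp in KO 2. Runx1, required to form HSC, stood at 57.7 in WT 2 and 1.35 in KO 2, and at 6.37 and 0 in pair 1. Hlf, which maintains HSC, stood at 13.0 in WT 1 and 64.4 in KO 1, and at 3.99 and 18.9 in pair 2. Over 27 genes the median shift was -0.42 points in pair 1 and 4.88 in pair 2. The surface marker gene Procr, which encodes EPCR, stood at 48.9 in WT 1 and at 0 in the other 3 cut lists.

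**Figure D4:**
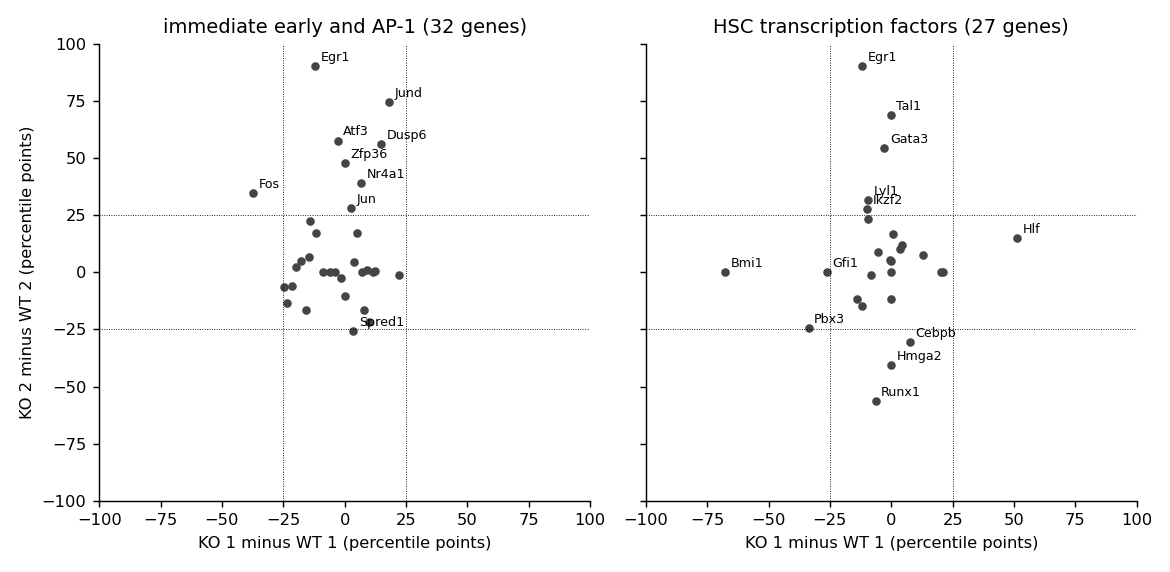
KO minus WT difference in percentile points in pair 1 (x axis) and pair 2 (y axis) for the strongest start region of immediate early and AP-1 genes (left) and HSC transcription factor genes (right); dotted lines mark 25 points. Genes past a line in either pair are named, and no gene of either list lies past a line in the same direction in both pairs.

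Away from starts, regions inside some HSC genes were called alike, as was a region near Dusp1 of the immediate early and AP-1 list. Whether these regions act on those genes was not tested. Inside Ikzf2, which encodes the factor Helios, a region (chromosome 1, 69606619 to 69607921) stood at 0 in WT 1, 67.3 in KO 1, 6.42 in WT 2 and 44.0 in KO 2. Inside Pbx3 a region (chromosome 2, 34359599 to 34360669) went the other way, at 56.9, 0, 45.1 and 10.3. One inside Vwf, a marker of platelet-biased HSC (chromosome 6, 125603064 to 125604878), stood at 36.1, 0, 52.1 and 26.98. A region 7335 bp from Dusp1, a phosphatase of MAP kinases (chromosome 17, 26497113 to 26498256), stood at 20.1, 62.3, 0 and 73.3. KO was higher at Ikzf2 and Dusp1 and lower at Pbx3 and Vwf, in both pairs.

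Histone and MYC peaks of the same genotypes, 1 ChIP-seq library each, were placed on the called regions. H3K4me3, a mark of active promoters, overlapped 17.4% (exact 95% interval 13.3 to 22.1) of KO-called regions in WT and 20% in KO, against 65.7% (60.1 to 71.0) and 67.6% of WT-called regions. Over all regions H3K4me3 was at 47.5% and 49.8%. Over those that could be called in both pairs it was at 74.0% and 75.7%, above both called classes. H3K27ac, a mark of active promoters and enhancers, overlapped 11.1% of KO-called regions in WT and 43.9% in KO, and 23.3% and 56.6% of WT-called regions; over all 25632 regions it was 17.2% and 48.6%, and over the 12051 that could be called in both pairs 27.1% and 69.9%, above both called classes. MYC peaks overlapped 21.3% of KO-called regions in WT and 32.8% in KO, and 17.2% and 26.9% of WT-called ones. Over all regions MYC was at 15.9% and 27.8%. Over those that could be called in both pairs it was at 23.8% and 42.0%, above both called classes. The KO list of either target overlapped more regions than the WT list in both classes and over all regions. Away from starts, H3K27ac in WT overlapped 10.1% (6.77 to 14.4) of 267 KO-called and 23.4% (16.7 to 31.3) of 141 WT-called regions. H3K27ac in KO overlapped 42.3% (36.3 to 48.5) and 52.5% (43.9 to 61.0) of them. These intervals give counting error over regions only, with 1 library per mark and genotype, and are no test between the classes. All regions away from starts gave 11.7% in WT and 35.1% in KO. Those away from starts that could be called in both pairs gave 22.85% and 56.3%. In WT the KO-called share was thus near the share of all regions, and the WT-called share near that of regions that could be called. A stricter rule, with at least 50% of a region covered, was applied to all 305 KO-called and 309 WT-called regions. H3K27ac in WT then overlapped 2.95% and 4.53%, against 11.1% and 23.3% with any overlap. MYC in WT overlapped 3.93% and 3.88%, against 21.3% and 17.2%. In the KO MycHet libraries KO-called regions stood at median percentiles of 39.7 and 41.4 and WT-called regions at 29.8 and 27.03, beside 25.7 and 25.2 over all regions. The regions that could be called in both pairs stood at 64.2 and 64.1 there, above both called classes.

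**Figure D5:**
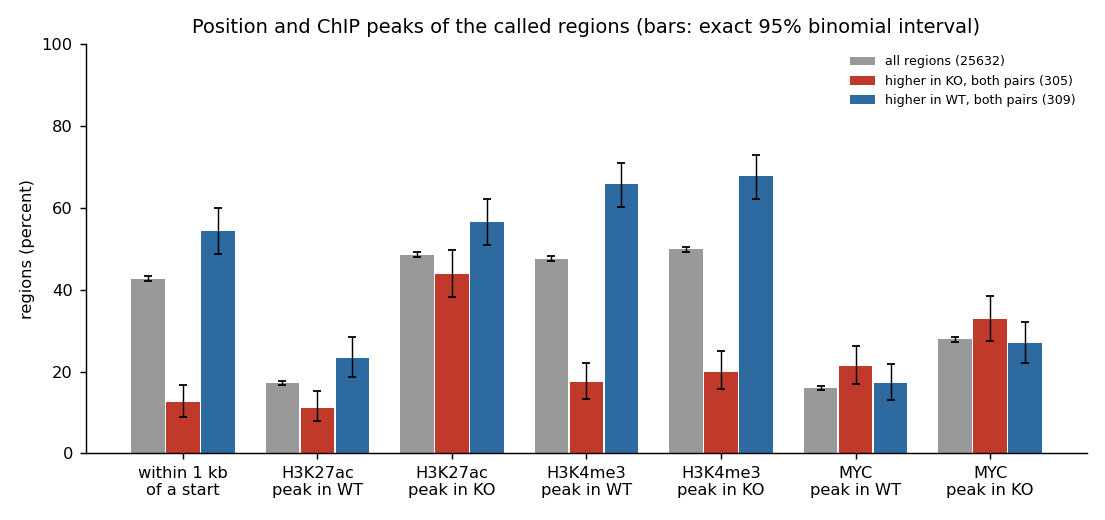
Percent of regions within 1 kb of a start and with a ChIP-seq peak in the WT or KO library, for all 25632 regions (grey), the 305 higher in KO (red) and the 309 higher in WT (blue) in both pairs; error bars are exact 95% binomial intervals. The red bars lie below the blue at starts (12.5% against 54.4%) and for H3K4me3, and the intervals of red and blue overlap for MYC. The intervals give counting error over regions only, with 1 ChIP-seq library per mark and genotype, and are no test.

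Promoter sequence was compared over the 250 bases before each start. Promoters in the KO-called regions numbered 35 and those in the WT-called regions 156, with a median GC content of 59.2% and 60.8%, against 61.2% for the 10996 promoters in any region and 56.0% for all 20881. GGGCGGG of SP and KLF factors was in 54.3% of KO-called, 41.0% of WT-called, 46.6% of in-region and 31.6% of all promoters. The ETS motif CCGGAAG was in 8.57%, 19.2%, 15.1% and 9.12% in the same order, and the MYC E-box CACGTG in 2.86% (1 of 35), 8.97%, 8.87% and 6.72%. GAAANNGAA was in 14.3% (5 of 35), 2.56%, 5.58% and 6.90%. The AP-1 motif TGANTCA was in 8.57% (3 of 35), 2.56%, 3.51% and 6.15%, again in this order. Within single pairs it was in 11.7% of 257 promoters higher in KO in pair 2 and 4.30% of 976 in pair 1. Promoters higher in WT held it in 2.28% of 835 in pair 2 and 3.48% of 1350 in pair 1. These shares carry no test, and those of the KO-called class rest on 35 sequences. Regions away from starts were not searched.

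Complete presence or absence by genotype was rare and mostly at the low end of the lists. In the full lists, 154 of 83289 regions had a peak in both KO and neither WT library, 9 of them at starts, and 117 had one in both WT and neither KO library, 6 of them at starts. The opposite patterns, KO 1 with WT 2 only and WT 1 with KO 2 only, held 224 and 51 regions. Only 3 of the 154 lay above percentile 50 in both full KO lists, and 1 of the 117, the Mtor start, in both full WT lists. A further 32183 regions were seen in WT 2 and KO 2 only, 16280 in KO 2 only and 12172 in WT 2 only. With all lists cut to 17303 peaks the counts were 437 in KO and 548 in WT.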

How the data were processed

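ATAC-seq peak lists of 2 WT and 2 KO libraries were compared, with 2 KO MycHet ATAC-seq lists and 6 ChIP-seq lists for reference. RNA-seq samples were not analysed here. Each deposited file gives position, name and a score per peak, and the score is the authors' peak caller value, lowest 50 in each list; no source used here gives its scale, the caller's version or the aligner. Names have the form the MACS caller writes, per the file contents. The build mm10 and CASAVA are named per the submitters' processing notes. Peaks were listed per library. Files hold no counts, so depth and its precision are unknown.

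Lists were cut to 17303 peaks and scores turned to percentiles. Regions were unions of overlapping peaks (at least 1 bp) of the 4 full lists, valued by their highest peak. Starts were those of the RefSeq promoter table for 17274 of 21631 protein-coding genes and either annotated end, with no strand, for the other 4357. Of 913 listed genes, 902 matched by symbol. Named were Mtor, Myc, the 12 regions and the 8 start regions with the largest smaller shift in each direction, and up to 3 genes per list and direction, predicted genes and RIKEN clones passed over; genes named outside this rule were chosen after their values were seen, and some that the rule takes are not reported here. The members and lists were chosen with earlier results of these data known. Python 3.11.15, pandas 2.3.3, numpy 2.4.6 and scipy 1.17.1 were used, calls were tested on simulated lists, and merging was checked against bedtools 2.31.1. Alternatives varied the shift called, list length, overlap, window and replicates.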

Additional observations from a re-analysis of the deposited data

Results flagged for a closer look

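Peaks on chromosome Y lie outside the comparisons above. The full lists held 13 in WT 1, 15 in KO 1, 40 in WT 2 and 37 in KO 2. Both counts of pair 2 were above both of pair 1, as for all peaks, and no control sample without a Y chromosome was at hand. Samples per group were too few for any check of single values that stand apart.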

How the results depend on the processing

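No paired analysis was possible because the result comes from no test, and the comparison itself was made within pairs. Counts moved with the shift that was called and with list length. At a shift of 15 points, 10920 regions were called in pair 1, 7284 in pair 2, 789 KO and 1067 WT in both, and 152 KO and 624 WT genes. At 50 points these were 1475, 374, 15 and 2. Full lists gave 19972 calls in pair 2, and 171 KO and 88 WT in both pairs. Only the strongest 8651 peaks of each list gave 3216, 2103, 153 and 204. Pair 2 at its own length gave 90 and 128. Leaving out a replicate leaves 1 pair: KO calls were then 1917 to 3409 and WT calls 1622 to 3399, and regions in KO and not WT lists 5838 to 16508, and in WT and not KO lists 4101 to 12526. Regions in both lists of one genotype only were 437 for KO and 548 for WT at equal lengths, and 3 and 1 above percentile 50 in both. The KO share of pair 2 calls was 54.2%, with 48.5% at 15 points, 81.3% at 50, 60.8% with full lists, 51.7% with 8651 peaks and 48.0% with merging by 50% overlap, so the majority turned to WT in 2 settings.

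The share at starts of KO-called minus WT-called regions kept its sign in all settings, which were added after the data were seen. It was -36.3 percentage points at 15 points, -93.3 at 50 (17 regions), -9.44 with full lists, -37.8 with 8651 peaks per list, -5.96 with pair 2 at its own length, and -36.4 to -10.2 within single pairs. With at least 50% of each region covered, the KO-called minus WT-called share was -1.58 points for H3K27ac in WT, -10.5 for H3K27ac in KO, -44.5 for H3K4me3 in WT, 0.051 for MYC in WT and 8.95 for MYC in KO. Merging by 50% overlap and a 2.5 kb window kept the counts of regions and genes recomputed under them within 1.5 times. Over all regions the mean rank correlation went from 0.80 to 0.74 within pairs, from 0.70 to 0.68 within genotypes and from 0.69 to 0.66 across both, and in pair 1 the value within the pair fell below that between the WT libraries (0.66 against 0.71). The cause of each difference was not tested. Without read counts, depth sets no interval on any percentile.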
